A study of Zea mays with 12 samples.

Results

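Embryos of the reciprocal maize hybrids B73xMo17 and Mo17xB73 were compared at 19 days after pollination. The comparison used the 6 arrays whose titles name a hybrid, out of 12 in the study, with 3 arrays of B73xMo17 set against 3 of Mo17xB73. The other 6 arrays, 3 of the inbred line B73 and 3 of the inbred line Mo17, shared the normalization and the estimate of the spread and served as parental levels. All embryos came from untreated field-grown plants, embryos of the same replicate number were collected on 1 date, and the 3 numbers stand for 3 dates. The labels give neither how many ears or embryos made up a sample nor what part of the kernel was trimmed away with the embryo.

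B73 and Mo17 are inbred lines of different breeding groups, widely used as parents of hybrid maize. By the usual convention the seed parent of a cross is written before the pollen parent, although the labels do not spell this out. The nuclear genotype of the embryo is alike in both crosses. What differs is the line that bore the ear, which also supplies the cytoplasm with its mitochondria and plastids, the maternal tissue around the embryo, and the larger share of the endosperm genome. Imprinted genes, which are expressed mainly from the copy of one parent, are a known source of differences between reciprocal crosses in the endosperm, the nutritive tissue beside the embryo. In bulk tissue, fewer cells of a type and less RNA per cell cannot be told apart.

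The measurements were log2 signals of 17621 probe sets, groups of short probes designed against a transcript sequence. Some probe sets can also read related transcripts. Of the 17621, 1452 were paired with 1 gene. Replicates of one hybrid correlated at 0.9691 to 0.9747 in B73xMo17 and 0.9723 to 0.973 in Mo17xB73. Across the 9 pairs that join one hybrid with the other, the correlations ran from 0.9669 to 0.9728, against 0.9138 to 0.9192 between B73 and Mo17. The embryo label was checked against 9 embryo markers, such as the storage globulins and the oil-body protein ole1, none of which lay below the floor of 27.6 signal units in any array. Their summed signal was 42123 to 44203 in B73xMo17 and 44242 to 48964 in Mo17xB73, so the arrays of the hybrids narrowly did not overlap. Their mean log2 signal did overlap, at 10.97 to 11.03 in B73xMo17 and 10.93 to 11.33 in Mo17xB73. A list of 31 endosperm genes was also bright, with a summed signal of 94690 to 102018 in B73xMo17 and 93992 to 105087 in Mo17xB73, and at most 4 of the 31 genes lay below the floor in a hybrid array. The mean log2 signal of those 31 genes was 9.75 to 9.98 in B73xMo17 and 10.06 to 10.19 in Mo17xB73, which did not overlap. Of 5 genes of green tissue, 3 to 4 lay below the floor in every array, and c1, the aleurone marker measured, lay below it throughout.

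Few transcripts distinguished the reciprocal hybrids, and those that did mostly followed the seed parent. limma called 153 of 17621 probe sets (0.868%) at an adjusted p under 0.05. Of these, 64 were higher in B73xMo17 (0.363%) and 89 were higher in Mo17xB73 (0.505%). A difference of at least 2-fold was found for 77 of them (0.437%), or 63 once signals under the floor were raised to it. For comparison, 6321 probe sets (35.9%) were called between B73 and Mo17. At an unadjusted p under 0.05 the hybrids differed at 2023 probe sets (11.5%), and the 3 arrays of each hybrid did not overlap at 2936 (16.7%). The median absolute log2 difference of the called probe sets was 0.77 for those higher in B73xMo17 and 1.06 for those higher in Mo17xB73, while the median signed difference over all probe sets was 0.009. The count depended on single arrays. Leaving out B73xMo17 replicate 2 gave 72 calls and leaving out replicate 3 gave 61. For Mo17xB73 the count was 95 when replicate 1 was dropped, 57 when replicate 2 was and 51 when replicate 3 was. It was also 39 when the variance was not allowed to depend on the signal level.

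All 153 called probe sets had the same sign in each of the 3 pairs of arrays collected on one date, and in none did the arrays of the hybrids overlap. Both follow closely from selection by the same 6 arrays and are a description only. The 153 belonged to 28 named genes through 33 probe sets, and the other 120 carry no gene name in the annotation used here. Among the genes, 11 were higher in B73xMo17 and 17 in Mo17xB73. The call was kept under all 21 alternatives tried for z1C1_12, gst30 and LPE1, for 2 probe sets of dzs18, for the dimmer probe set of bap1-b and for the unnamed probe sets Zm.7848.1.A1_at, Zm.12.1.S1_at, Zm.13480.1.S1_at, Zm.4155.1.A1_at and Zm.13505.1.A1_at.

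**Figure D1:**
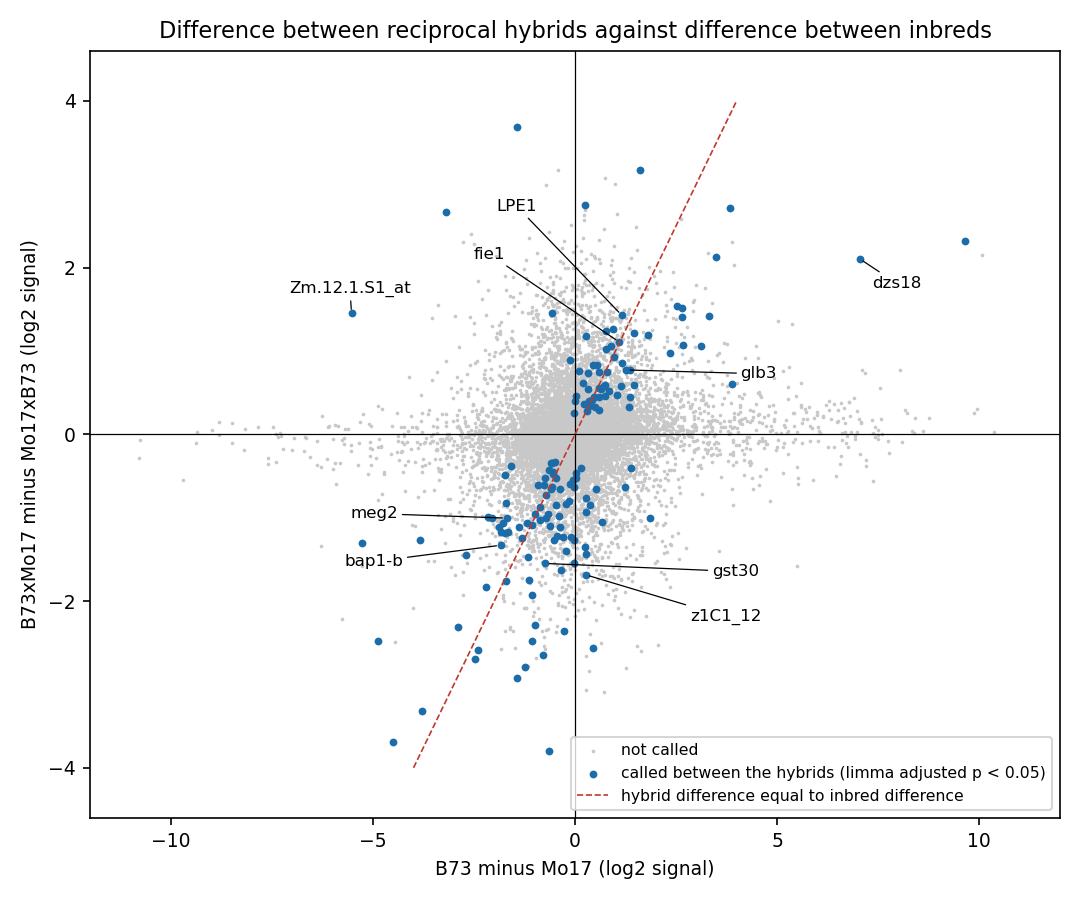
Each point is a probe set, with the log2 difference B73 minus Mo17 on the x axis and the log2 difference B73xMo17 minus Mo17xB73 on the y axis. Blue points are the 153 probe sets called between the hybrids by limma, grey points the rest, and the dashed line marks equal differences. Most blue points lie in the upper right and lower left quadrants, where the hybrid difference has the sign of the seed parents' difference.

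The sign of the inbred difference gave a direction computed from arrays other than those of the hybrids, although the inbred arrays entered the normalization and the spread behind the calls. Without any 1 inbred array, 119 to 144 probe sets were called. A probe set was taken to follow the seed parent when the hybrid borne on B73 differed from the hybrid borne on Mo17 in the direction in which B73 differed from Mo17. Inbred differences were differences in array signal and depended on the probe set in some genes. For pdc2 they were 3.12, -1.60, -3.80 and 0.16 over its 4 probe sets, while the 4 of dzs18 ran from 2.64 to 10.09. Whether sequence differences under the probes contributed was not tested. Among the called probe sets whose inbreds were at least 2-fold apart, 58 of 64 (90.6%) followed the seed parent. This held for 25 of the 28 higher in B73xMo17 and for 33 of the 36 higher in Mo17xB73. Over all 3383 probe sets with inbreds at least 2-fold apart, 2114 (62.5%) did so, and over all 17621 it was 10280 (58.3%). The median ratio of the hybrid to the inbred difference was 0.595 over the 64 probe sets, 0.483 in those higher in B73xMo17 and 0.715 in those higher in Mo17xB73, against 0.048 over the 3383. Over the 89 called probe sets with inbreds less than 2-fold apart, the median ratio was 1.09 and 73 (82%) followed the seed parent. The called probe sets were selected for their hybrid difference, which by itself raises the ratio, and the median over the 3383 is signed and includes 1269 that went against the seed parent. The ratios are therefore a description only.

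Of the 153, 114 were also called between the inbreds. Their ratio of hybrid to inbred difference had a median of 0.777, with quartiles of 0.509 and 1.07. It lay between 0.8 and 1.25 for 35 of the 114, between 0 and 0.5 for 18, above 1.25 for 20 and below 0 for 9. In 56 of the 114, each hybrid was called different from its pollen parent and not called different from its seed parent, in the direction of the seed parent. A missing call does not show that a hybrid equalled its seed parent. Named genes among these 56 were fie1, yuc, LPE1, ubc7, phi1, LOC542342 and a dimmer probe set of dzs18, all higher in B73xMo17, and opr1, aprl1, aos1 and zSSIIa, all higher in Mo17xB73.

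The position of each hybrid array between its inbreds gave 1 value per array. It is the median, over the 3383 probe sets, of the log2 distance from the Mo17 mean as a share of the distance between Mo17 and B73, so that 0 stands for Mo17 and 1 for B73. The B73xMo17 arrays stood at 0.597, 0.633 and 0.598, against 0.55, 0.496 and 0.53 for the Mo17xB73 arrays. The groups did not overlap. The means were 0.609 ± 0.021 in B73xMo17 and 0.525 ± 0.027 in Mo17xB73 (SD, n = 3 each), a difference of 0.084. The exact two-sided permutation test gave p = 0.1, the smallest value that 3 arrays against 3 allow. Within collection dates the difference was 0.047, 0.137 and 0.068.

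**Figure D2:**
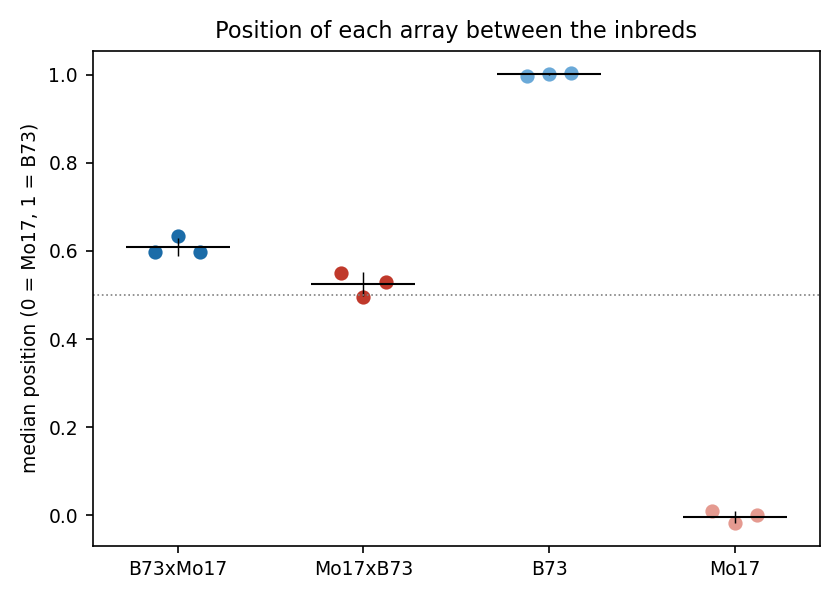
The y axis is the median position of an array between Mo17 (0) and B73 (1) over 3383 probe sets, with 1 point per array, a bar at the mean and a line of 1 SD either side. The inbred arrays define the axis and lie near 0 and 1 by construction, and the 3 B73xMo17 arrays lie at 0.597 to 0.633, all above the 3 Mo17xB73 arrays at 0.496 to 0.55.

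Storage protein genes gave the call with the lowest adjusted p and calls in both directions. Zeins are the prolamin storage proteins of the maize endosperm. Of 8 measured zein genes, 2 were called, 1 in each direction (median log2 difference -0.06), beside 0.868% of all probe sets. dzs18 encodes a delta zein, a class rich in sulfur amino acids. Its log2 signal was 13.70, 13.58 and 13.63 in the B73xMo17 arrays, against 11.34, 11.50 and 11.76 in the Mo17xB73 arrays. The groups were far apart, and the difference of 2.10 ± 0.10 (SE) was 4.30-fold (limma adjusted p = 2.92e-07). B73 averaged 13.59 ± 0.06 and Mo17 6.55 ± 0.17 (SD, n = 3 each), so B73xMo17 stood 0.04 above B73 and Mo17xB73 stood 2.06 below it. Mo17xB73 was far from its own seed parent, called 4.98 above Mo17 (limma adjusted p = 1.05e-12). The 4 probe sets of dzs18 all pointed the same way with log2 differences of 1.51 to 2.31, of which 3 were called. The fourth was not (2.15, limma adjusted p = 0.311). The call of the dimmest, at 1.51, was kept under 12 of 21 alternatives and lost without any 1 of the 6 hybrid arrays (limma adjusted p up to 0.115). The highest normalized log2 signal of any probe set was 14, and array signals near the top of their range compress differences.

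z1C1_12, an alpha zein gene, ran the other way. Its log2 signal was 10.19, 9.50 and 9.69 in B73xMo17 and 11.42, 11.37 and 11.65 in Mo17xB73. The groups did not overlap. The difference was -1.69 ± 0.19 (limma adjusted p = 0.00137), and Mo17xB73 was 3.22-fold higher. The inbreds were not called apart, with 10.53 ± 0.40 in B73 and 10.26 ± 0.18 in Mo17 (limma adjusted p = 0.33). Mo17xB73 was called above both inbreds, by 0.95 over B73 (limma adjusted p = 0.00372) and by 1.22 over Mo17 (limma adjusted p = 0.000537). The hybrid difference was itself called different from the inbred difference (limma adjusted p = 0.000115). Alpha zein genes form a family of near-identical copies, so probes of one member may also read others. The remaining 6 zein genes had log2 differences of -0.28 (z1D_2, limma adjusted p = 0.19) to 0.08 (gz27, limma adjusted p = 0.868).

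Genes of the basal endosperm that were called were all higher in Mo17xB73, the direction of Mo17. The basal layer passes nutrients from the mother plant into the kernel and expresses antifungal peptides (BAP), transfer-layer proteins (BETL) and maternally expressed peptides (MEG). Of 17 measured genes of the basal layer and of the region around the embryo, 3 were called, all higher in Mo17xB73, beside 0.505% of all probe sets. The log2 difference was below 0 in 16 of 17, with bap-3b at 0.23 as the exception, and in 8471 of all 17621 probe sets, while the median was -0.71, against 0.009 over all probe sets. It had the sign of the inbred difference in 16 of 17, beside 58.3% of all probe sets. The arrays did not overlap in 9 of 17, beside 16.7% of all probe sets. As with every list here, the members were chosen with earlier results of these data known. Each gene was read by its brightest probe set, whereas the shares cover all probe sets, dim ones included. The comparison with those shares is a description only.

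The brighter probe set of bap1-b read 9.36, 9.05 and 9.30 in B73xMo17 and 10.29, 11.04 and 10.38 in Mo17xB73 on the log2 scale. This was a 2.52-fold higher signal in Mo17xB73 (-1.33 ± 0.19, limma adjusted p = 0.00464). Its other probe set stood at -1.83 ± 0.23 (limma adjusted p = 0.0019). In the inbreds the brighter one averaged 8.38 ± 0.09 in B73 and 10.22 ± 0.33 in Mo17. bap-1a read 8.84, 8.38 and 8.99 in B73xMo17 and 9.70, 10.22 and 10.03 in Mo17xB73. It was 2.37-fold higher in Mo17xB73 (-1.25 ± 0.18, limma adjusted p = 0.00614), a difference close to that of the inbreds (-1.32). For both genes every Mo17xB73 array lay above every B73xMo17 array. Without the eBayes trend neither the brighter probe set of bap1-b (limma adjusted p = 0.0617) nor bap-1a (0.0676) was called. The names of the 2 BAP genes point to closely related sequences, so their signals may not be independent.

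meg2 belongs to a family of small cysteine-rich peptides of the transfer layer. It read 11.40, 10.86 and 11.43 in B73xMo17 and 12.07, 12.40 and 12.25 in Mo17xB73. The difference of -1.005 ± 0.20 made it 2.01-fold higher in Mo17xB73 (limma adjusted p = 0.0362). Its second probe set had the same sign and was also called (-1.18 ± 0.22, limma adjusted p = 0.0239). The names of the 2 probe sets point to the same sequence, so their signals may not be independent. The call of the first was kept under 10 of 21 alternatives. It was lost without any 1 of the 6 hybrid arrays (limma adjusted p up to 0.137) and without B73 replicate 2 (limma adjusted p = 0.0521). That of the second was lost without B73xMo17 replicate 2 or Mo17xB73 replicates 2 or 3 (up to 0.0969), with the floor (0.112) and without the eBayes trend (0.132). The inbreds differed by -1.69. Members that were not called included bap2 (-1.01, limma adjusted p = 0.133), betl1c (-0.62, limma adjusted p = 0.175) and mn1, the cell wall invertase of the basal layer (-0.71, limma adjusted p = 0.461). The endosperm list described above includes genes of the basal layer, so the shift in its mean log2 signal is not separate from theirs. Its summed signal overlapped between the hybrids. The part of endosperm carried along with the embryos in these differences was not tested.

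**Figure D3:**
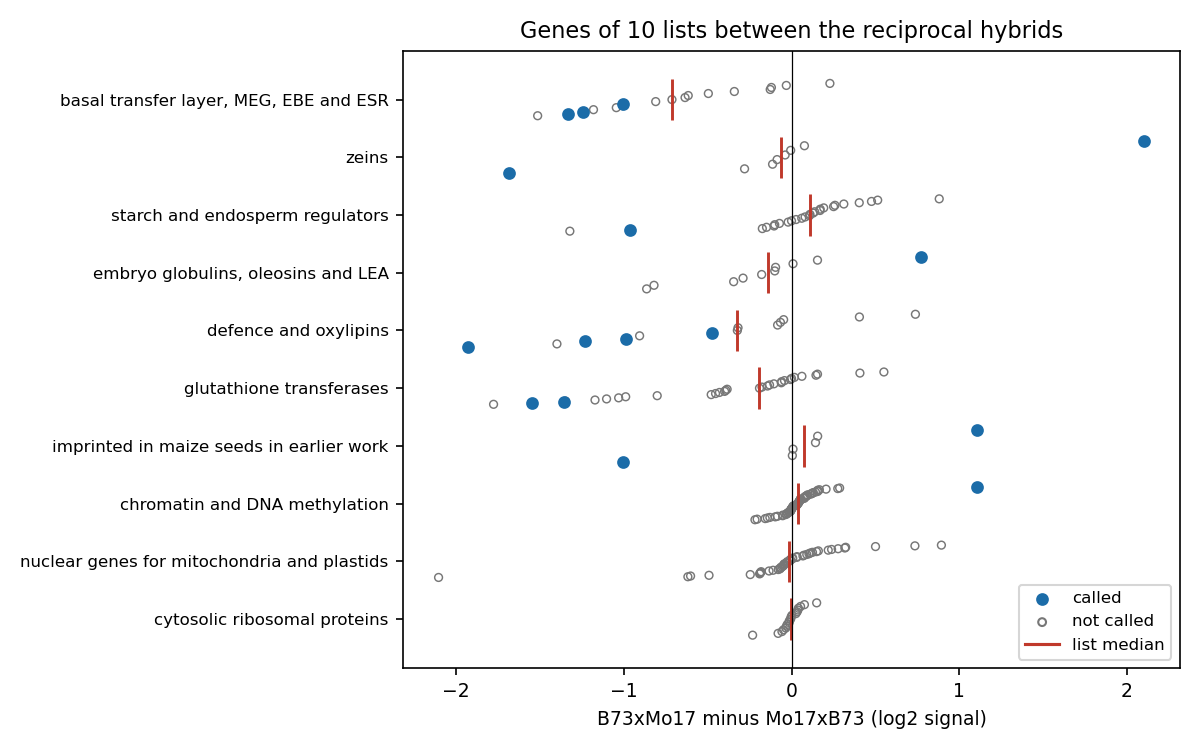
Each point is a gene, placed by the log2 difference B73xMo17 minus Mo17xB73 of its brightest probe set, with filled points called by limma, open points not called and a red line at the median of the list. The basal layer list lies left of 0 with a median of -0.71, while cytosolic ribosomal proteins and chromatin genes lie close to 0 apart from fie1.

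Genes of starch synthesis and endosperm regulators gave 1 call among 26 measured (median log2 difference 0.11), beside 0.868% of all probe sets. zSSIIa, a starch synthase, read 11.55, 10.78 and 11.38 in B73xMo17 and 12.24, 12.43 and 11.92 in Mo17xB73. It was 1.95-fold higher in Mo17xB73 (-0.96 ± 0.21, limma adjusted p = 0.0478), and the inbreds differed by -0.99. The groups did not overlap, but the call was lost with the collection date as a block (limma adjusted p = 0.0725) and was kept under 3 of 21 alternatives. The transcription factor o2, which activates zein genes, stood at 0.88 (limma adjusted p = 0.13) and the starch synthase GBSSIIa at 0.25 (limma adjusted p = 0.0603), neither called.

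Of 10 measured genes for embryo globulins, oleosins and desiccation proteins, 1 was called (median log2 difference -0.14), beside 0.868% of all probe sets. glb3, an embryo storage globulin, read 12.29, 12.24 and 12.33 in B73xMo17 and 11.65, 11.59 and 11.30 in Mo17xB73. It was 1.71-fold higher in B73xMo17 (0.77 ± 0.14, limma adjusted p = 0.0259), with 12.04 ± 0.20 in B73 and 10.78 ± 0.33 in Mo17. The call was lost without any 1 of 5 hybrid arrays (limma adjusted p up to 0.127) and held without Mo17xB73 replicate 1. It was also lost with the values as deposited (limma adjusted p = 0.118), with the floor (0.112) and without the eBayes trend (0.145). glb1 (-0.29, limma adjusted p = 0.366) and emb5, a late embryogenesis gene (-0.86, limma adjusted p = 0.256), had differences below 0 without a call, emb5 beside an inbred difference of 2.26.

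A list drawn up for imprinting in the maize seed had 6 measured genes. It also holds relatives of imprinted genes, so not every member is known to be imprinted. Of the 6, 2 were called, in opposite directions (median log2 difference 0.08), beside 0.868% of all probe sets. fie1 encodes a Polycomb group protein whose endosperm transcript comes from the maternal copy in earlier work. It read 8.88, 8.15 and 8.62 in B73xMo17 and 7.41, 7.80 and 7.13 in Mo17xB73. All B73xMo17 arrays lay above all Mo17xB73 arrays, and the difference of 1.10 ± 0.22 was 2.15-fold (limma adjusted p = 0.0393). B73 averaged 8.53 ± 0.07 and Mo17 7.43 ± 0.42, so the inbred difference of 1.10 was as large, and each hybrid mean lay within 0.02 of the mean of its seed parent. The hybrid and inbred differences were not called apart (limma adjusted p = 0.993).

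The fie1 call was kept under 10 of 21 alternatives. It was lost without 4 of the 6 hybrid arrays, namely replicates 1 and 3 of each hybrid (limma adjusted p up to 0.164), without any of the 3 B73 arrays (up to 0.0588) and without Mo17 replicate 3 (0.0515). The other called member, meg2, was higher in Mo17xB73 as given above, which was likewise the direction of its seed parent. fie2, the paralog of fie1, stood at 0.01 (limma adjusted p = 0.982). The Enhancer of zeste homologs stood at 0.14 for mez1 (limma adjusted p = 0.404), 0.01 for mez2 (limma adjusted p = 0.996) and 0.16 for mez3 (limma adjusted p = 0.904). Of 57 measured genes for chromatin and DNA methylation, which include these, fie1 alone was called by limma at the adjusted threshold, and 5 had an unadjusted p under 0.05, beside 11.5% of all probe sets.

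Oxylipin and detoxification genes were called in 1 direction, higher in Mo17xB73. Jasmonates are oxylipin hormones made from fatty acids by lipoxygenases, allene oxide synthase and oxophytodienoate reductases. Of 13 measured defence and oxylipin genes, 4 were called, all higher in Mo17xB73 (median log2 difference -0.32), beside 0.505% of all probe sets called in that direction. The reductase genes opr5 and opr1 were among them. opr5 read 6.38, 6.14 and 5.57 in B73xMo17 and 7.21, 7.35 and 7.22 in Mo17xB73 (-1.23 ± 0.26, limma adjusted p = 0.0494). opr1 read 6.39, 6.37 and 6.80 in B73xMo17 and 7.25, 7.49 and 7.79 in Mo17xB73 (-0.99 ± 0.21, limma adjusted p = 0.0469). The groups overlapped for neither gene, and both calls were lost without any 1 of the 6 hybrid arrays (limma adjusted p up to 0.199 for opr1 and 0.18 for opr5). Of 21 alternatives, 7 kept the call of opr1 and 6 that of opr5.

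aos1, the allene oxide synthase, read 10.07, 10.21 and 10.28 in B73xMo17 and 10.73, 10.65 and 10.59 in Mo17xB73. The difference was small but tight (-0.47 ± 0.07, limma adjusted p = 0.00633), and the inbreds stood at 10.18 ± 0.03 in B73 and 10.73 ± 0.09 in Mo17. The call was lost with the values as deposited (-0.35, limma adjusted p = 1) and without the eBayes trend (0.0617). aos1 fell outside the 15 called genes with the largest difference in its direction and was named as a list member with a small p. The remaining call, lox1, was dim at 3.20 ± 0.60 in B73xMo17 and 5.12 ± 0.21 in Mo17xB73. Its log2 difference of -1.93 shrank to -0.34 with the floor, and its second probe set pointed the other way (0.49, limma adjusted p = 0.915). The 3 genes opr3, opr7 and opr8 of the same reductase family lay at -0.32, -0.07 and -0.05, not called (limma adjusted p of at least 0.915).

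Glutathione transferases conjugate glutathione to reactive and foreign compounds, and 2 of 31 measured genes were called, both higher in Mo17xB73 (median log2 difference -0.19), beside 0.505% of all probe sets. The difference was below 0 in 24 of 31 and in 8471 of all 17621 probe sets. gst30 read 11.45, 10.99 and 10.54 in B73xMo17 and 12.41, 12.66 and 12.56 in Mo17xB73. It was 2.93-fold higher in Mo17xB73 (-1.55 ± 0.19, limma adjusted p = 0.0019), with no overlap between the arrays. B73xMo17 was called below both inbreds, by 1.11 on the log2 scale against B73 (limma adjusted p = 0.00155) and by 1.85 against Mo17 (limma adjusted p = 8.62e-06). gst2 read 6.02, 5.61 and 5.72 in B73xMo17 and 7.32, 7.34 and 6.76 in Mo17xB73. It was 2.56-fold higher in Mo17xB73 (-1.36 ± 0.24, limma adjusted p = 0.0205) and also called below both inbreds in B73xMo17. Its call was lost without 4 of the 6 hybrid arrays, replicates 2 and 3 of B73xMo17 and replicates 1 and 2 of Mo17xB73 (limma adjusted p up to 0.0819). That call was also lost with the values as deposited (limma adjusted p = 0.142), with the floor (0.0705) and without the eBayes trend (0.0794).

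hmt1, mas1 and sfp1 were also called below both inbreds in B73xMo17. hmt1 encodes a homocysteine methyltransferase, an enzyme of methionine synthesis. It read 10.05, 9.84 and 9.54 in B73xMo17 and 10.59, 10.96 and 10.67 in Mo17xB73, against 10.71 ± 0.13 in B73 and 10.44 ± 0.15 in Mo17. It was 1.90-fold higher in Mo17xB73 (-0.93 ± 0.13, limma adjusted p = 0.00464), and the inbreds were not called apart (limma adjusted p = 0.14). The call was lost with the values as deposited (limma adjusted p = 0.384) and without the eBayes trend (0.0617). mas1, the malate synthase of the glyoxylate cycle, read 7.78, 7.80 and 7.86 in B73xMo17 and 8.58, 8.55 and 8.61 in Mo17xB73. The 2 groups were separate and tight (-0.76 ± 0.13, limma adjusted p = 0.0197), though the call was lost without any 1 of the 6 hybrid arrays (limma adjusted p up to 0.0929). It was also lost with the values as deposited (limma adjusted p = 0.962), with the floor (0.0635) and without the eBayes trend (0.0794). sfp1 was 3.09-fold higher in Mo17xB73 (-1.63 ± 0.24, limma adjusted p = 0.00646), with 7.73, 7.28 and 6.62 in B73xMo17 and 8.59, 9.06 and 8.86 in Mo17xB73. Its call was lost with the floor (limma adjusted p = 0.0615) and without the trend (0.0693).

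**Figure D4:**
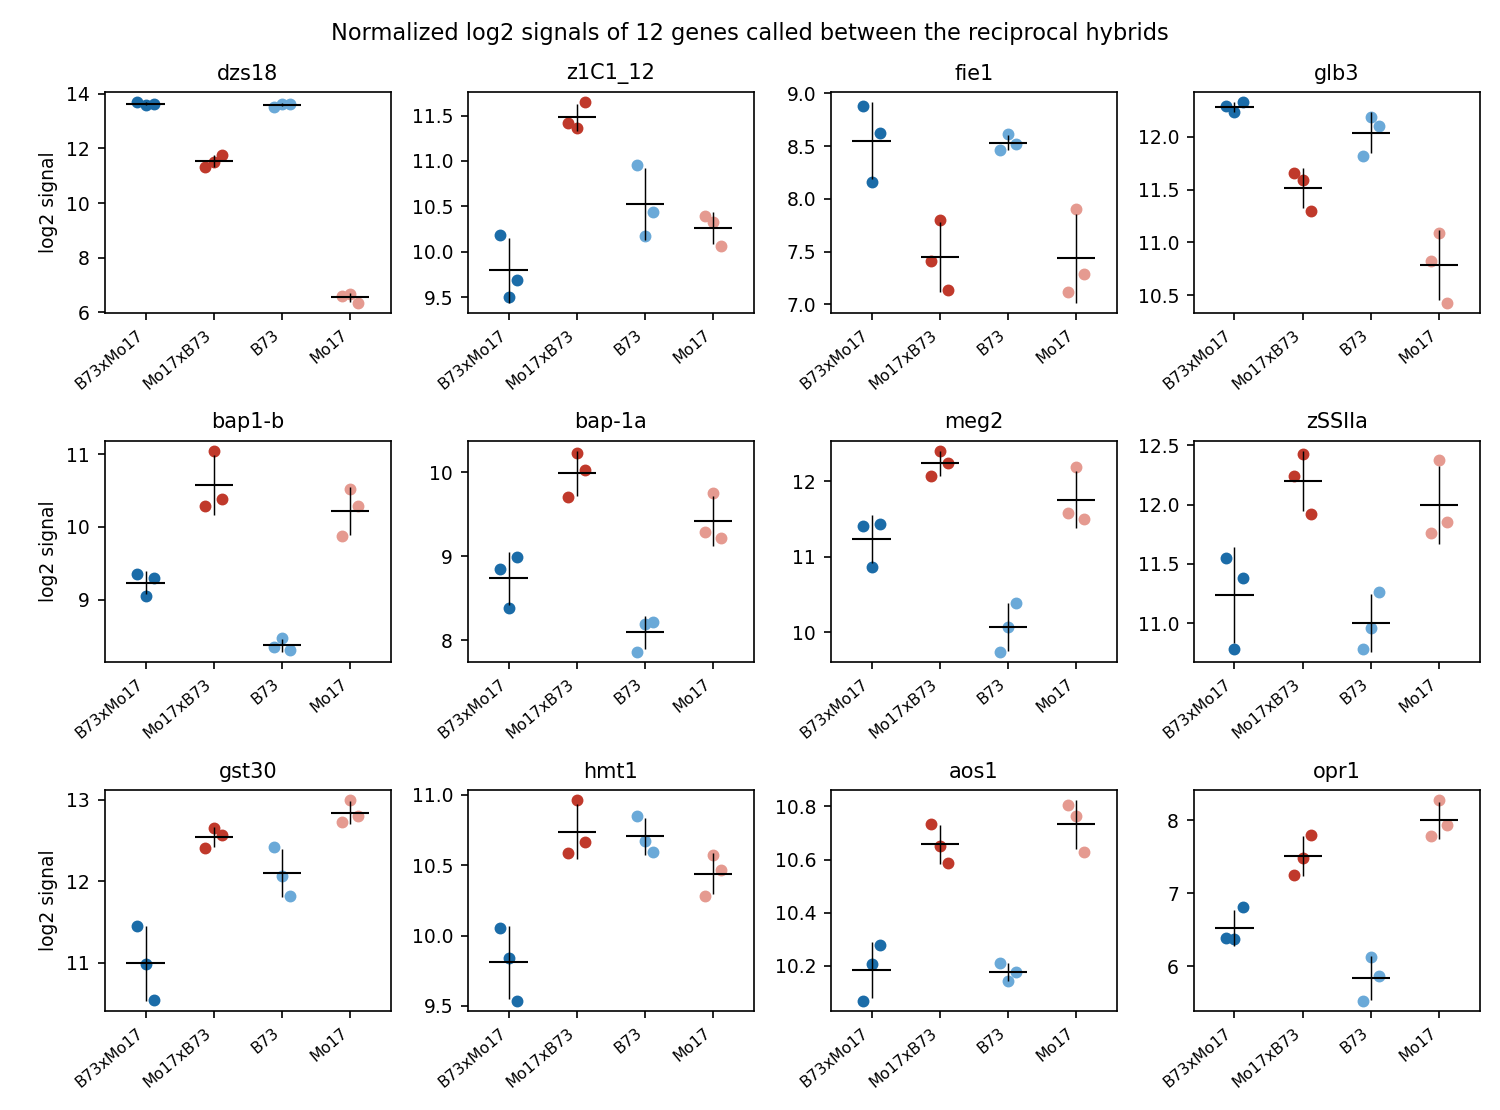
Normalized log2 signals (y axis, a separate range in each panel) of 12 called genes, with 1 point per array, a bar at the mean and a line of 1 SD either side. For fie1, aos1 and zSSIIa the hybrids lie beside the inbred written first in the cross, while gst30 and hmt1 are lower in B73xMo17 than in either inbred and z1C1_12 is higher in Mo17xB73 than in either.

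Levels outside the parental range were counted over all called probe sets. B73xMo17 was called below both inbreds at 25 of the 153 and above both at 3, while Mo17xB73 was called below both at 4 and above both at 7. These counts use the arrays that chose the 153 probe sets and are a description only. Over all 17621 probe sets, B73xMo17 was below both inbreds at 53 and above both at 16, and Mo17xB73 was below both at 36 and above both at 25. Named genes below both inbreds in B73xMo17 were gst30, gst2, hmt1, mas1, sfp1 and a dim probe set of piip1, whose log2 difference of -2.29 shrank to -0.41 with the floor. All of these were higher in Mo17xB73 than in B73xMo17. z1C1_12 was the named gene above both inbreds in Mo17xB73.

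Other named genes were higher in B73xMo17. yuc, a flavin monooxygenase of auxin synthesis, read 11.01, 10.30 and 10.62 in B73xMo17 and 9.69, 9.85 and 9.63 in Mo17xB73. It was 1.90-fold higher in B73xMo17 (0.92 ± 0.17, limma adjusted p = 0.0239), and the inbreds differed by 0.96. LPE1, a leaf permease, read 7.42, 7.12 and 6.74 in B73xMo17 and 5.53, 5.70 and 5.77 in Mo17xB73 (1.43 ± 0.22, limma adjusted p = 0.00945). For both genes the arrays of the hybrids were separate. The call of yuc was lost without 5 of the 6 hybrid arrays (limma adjusted p up to 0.112) and held without B73xMo17 replicate 2. It was also lost with the floor (limma adjusted p = 0.107) and without the eBayes trend (0.132).

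Smaller differences in the same direction were called for S6K, a kinase of ribosomal protein S6 (0.76 ± 0.15, limma adjusted p = 0.0386), plt2 (0.45 ± 0.09, limma adjusted p = 0.0443), phi1 (0.29 ± 0.06, limma adjusted p = 0.0435) and LOC542342 (0.28 ± 0.05, limma adjusted p = 0.0271). These 4 calls were lost without any 1 of the 6 hybrid arrays (limma adjusted p up to 0.169). ubc7, a ubiquitin-conjugating enzyme, stood at 0.37 ± 0.06 (limma adjusted p = 0.00945) in one of its 2 called probe sets, and 6 of its 7 probe sets were above 0. The call was lost without B73xMo17 replicate 3 or Mo17xB73 replicates 2 or 3 (limma adjusted p up to 0.0528). pdc2, a pyruvate decarboxylase of fermentation, was called in 1 of 4 probe sets at 1.06 ± 0.22 (limma adjusted p = 0.0406), while the others ran from -2.33 to 0.43 without a call. That call held without B73xMo17 replicate 1 but not without any other hybrid array (limma adjusted p up to 0.167). It was kept under 7 of 21 alternatives. Among genes higher in Mo17xB73, aprl1 stood at -0.87 ± 0.15 (limma adjusted p = 0.0155), beside an inbred difference of -0.86. Its call was lost without replicates 2 or 3 of either hybrid (limma adjusted p up to 0.0888). That call was also lost with the values as deposited (limma adjusted p = 0.556), with the floor (0.0804) and without the eBayes trend (0.101). sir, the sulfite reductase of sulfate assimilation, was called in 1 of 3 probe sets (-0.66 ± 0.13, limma adjusted p = 0.0344) and was named after its values were seen. Its other probe sets stood at -0.14 and -0.03, and the call held without B73xMo17 replicate 1 but not without any other hybrid array (limma adjusted p up to 0.136). The sir call was kept under 13 of 21 alternatives.

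Probe sets without a gene name held several of the most separate signals. Zm.12.1.S1_at read 13.14, 12.84 and 13.14 in B73xMo17 and 11.47, 11.53 and 11.77 in Mo17xB73. It was 2.73-fold higher in B73xMo17 (1.45 ± 0.16, limma adjusted p = 0.00112), although B73 was the lower inbred by far, at 5.998 ± 0.39 against 11.53 ± 0.12 in Mo17. Mo17xB73 lay within 0.06 of Mo17, and B73xMo17 was called above both inbreds. It is 1 of 6 called probe sets with inbreds at least 2-fold apart that went against the seed parent, and 2 of the 6 had a difference of 0 with the floor.

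Zm.7848.1.A1_at read 9.94, 9.36 and 8.65 in B73xMo17 and 11.81, 12.08 and 11.50 in Mo17xB73, a 5.59-fold higher signal in Mo17xB73 (-2.48 ± 0.26, limma adjusted p = 0.000995). Zm.13480.1.S1_at was 3.35-fold higher in Mo17xB73 (-1.74 ± 0.19, limma adjusted p = 0.00112). In B73xMo17 both lay below either inbred by test. Zm.13137.2.S1_a_at, with 7.69, 6.57 and 5.97 in B73xMo17 and 9.77, 10.01 and 9.22 in Mo17xB73, had a larger difference but a dimmer B73xMo17 level (-2.93 ± 0.41, limma adjusted p = 0.00464; 0.0546 with the floor). In the other direction, Zm.4155.1.A1_at was 2.75-fold higher in B73xMo17 (1.46 ± 0.18, limma adjusted p = 0.0019) and Zm.13505.1.A1_at 2.65-fold (1.41 ± 0.18, limma adjusted p = 0.00221). The inbreds differed by -0.57 at Zm.4155.1.A1_at and by 2.64 at Zm.13505.1.A1_at.

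The largest fitted differences of all belonged to dim probe sets and shrank with the floor. Zm.16191.1.S1_at stood at -3.80 and Zm.15707.1.A1_at at 3.68 on the log2 scale, and both became 0 with the floor. Zm.13013.1.A1_at went to -0.01 with the floor and -3.70 without it. Among the 153 calls, both hybrid means lay below the floor at 9 probe sets and one of them at 5. The calls of Zm.9555.2.A1_at (2.67), ZmAffx.591.1.A1_at (2.75) and Zm.13991.1.S1_at (-2.79), all dim, were lost with the collection date as a block (limma adjusted p of 0.0612, 0.0639 and 0.0653).

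Nuclear genes for mitochondrial and plastid proteins, whose organelles come through the seed parent, gave no limma call among 46 measured (median log2 difference -0.02). At an unadjusted p under 0.05 there were 8, beside 11.5% of all probe sets. The alternative oxidase gene aox2, at -2.11 (limma adjusted p = 0.127), became 0 with the floor. No limma call was made among 19 photosynthesis genes (1 at an unadjusted p under 0.05), 19 cytosolic ribosomal protein genes (0), 5 histone genes (0), 14 genes of DNA replication and the cell cycle (0), 12 heat shock and chaperone genes (1) or 16 genes of glycolysis and fermentation by their brightest probe sets (1). The ribosomal protein genes spanned log2 differences of -0.23 to 0.15.

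Among 56 developmental transcription factors limma called 0, and 11 had an unadjusted p under 0.05, beside 11.5% of all probe sets. The MADS-box gene m5 stood at 1.47 (limma adjusted p = 0.055) and the NAC factor nac4 at 0.70 (limma adjusted p = 0.0853), both higher in B73xMo17 and not called. The lists for flavonoids and lignin (9 genes), lipids (4), cytochrome P450 and benzoxazinoid genes (4) and peroxidases, catalases and dismutases (12) also gave no limma call, with 1, 0, 2 and 1 genes at an unadjusted p under 0.05. A missing call does not show equal levels.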

How the data were processed

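RNA of 12 maize embryo samples was read on 1-colour Affymetrix arrays. The deposited values are linear intensity values per probe set. MAS5 is named in the submitters' processing notes, without a version, and no normalization between arrays is given in the sources used here. The deposited array medians ran from 192.1 to 313.8. Detection calls were not used here.

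The 113 control probe sets were left out, and the log2 signals of the other 17621 were quantile normalized over the 12 arrays, without a filter on dim signals. Differences are B73xMo17 minus Mo17xB73 in a fit of all 4 groups with limma 3.58.1 in R 4.3.3 (lmFit, eBayes with an intensity trend, 8 residual degrees of freedom). Benjamini-Hochberg adjustment ran over all probe sets, and a call is an adjusted p under 0.05. The fit was tested on simulated data with known differences. The floor is the 25th percentile of normalized signals, 27.6 units. A gene in a list was read by its brightest probe set. The 3 arrays per group limit the precision.

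Gene names come from the platform annotation, which can be old: 1452 probe sets had 1 gene, 1 had several and 16168 had none, and 1060 of 1108 genes matched RefSeq. Genes were named by a rule. It took annotated called genes, up to the 15 with the largest difference in each direction. It took the 6 unannotated called probe sets with the largest difference in each direction. To these came the 5 called probe sets with the largest difference in each direction among signals at or above the median. The list members with the smallest p and every measured member of the imprinting list were also named. The members and lists were chosen with earlier results of these data known. No p-value was computed over a list.

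Replicate numbers pair arrays because, per the labels' protocols, a number marks a shared collection date. The residuals of same-numbered hybrid arrays correlated at 0.024, 0.018 and -0.053. Alternatives were other scalings, floors, offsets, filters and variance models, the 6 hybrid arrays alone, the date as a block and leaving out each array in turn. Leaving out inbred arrays in the counts and gene tests was added after seeing the data.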

Additional observations from a re-analysis of the deposited data

How the results depend on the processing

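The number of probe sets called, 153, was 42 with the values as deposited (20 higher in B73xMo17, 22 higher in Mo17xB73), 76 with the floor (40 and 36) and 39 without the eBayes trend (16 and 23). Calls at least 2-fold apart numbered 42, 32 and 30 under these 3 settings. The values as deposited also moved the median difference of all probe sets to 0.12. Called probe sets with inbreds at least 2-fold apart that followed the seed parent numbered 29, 29 and 16. Those that went against it numbered 2, 4 and 4 under the same 3 settings, and 2 with the 6 hybrid arrays alone. Counting inbred differences past the adjusted threshold in place of the 2-fold limit gave 105 that followed the seed parent. Leaving out 1 array at a time gave 51 to 144 calls, 20 to 62 higher in B73xMo17, 31 to 83 higher in Mo17xB73, 36 to 74 at least 2-fold apart, 24 to 57 that followed the seed parent and 1 to 6 that did not. The share of calls higher in B73xMo17 was 41.8%, 30.1% without B73xMo17 replicate 1 and 52.6% with the floor. Genes called in the basal layer list numbered 2 or 3 without any 1 array, 1 with the floor and 0 without the trend. The difference in position between the inbreds ran from 0.069 to 0.119 over all alternatives run, but was not run with the 6 hybrid arrays alone, since the inbreds set its scale.

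With the replicate block, which pairs arrays by collection date, 187 probe sets were called, and 141 of the 153 were among them. Among the named called genes and probe sets it ended the calls of zSSIIa, Zm.9555.2.A1_at, ZmAffx.591.1.A1_at and Zm.13991.1.S1_at, and changed no other call among them. No called named probe set changed sign under any alternative. Among the uncalled, fie2 ran from -0.009 to 0.035 and mez2 from -0.066 to 0.089 when 1 array was left out, below 0 without B73xMo17 replicate 1 or Mo17xB73 replicate 2 for fie2, and without B73xMo17 replicates 2 or 3 or Mo17xB73 replicate 2 for mez2. Of 1059 values for 51 called named probe sets under the alternatives, 700 kept the call and 359 lost it. Detection calls were not used, so differences near the floor are uncertain in size.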
